A study of Mus musculus with 14 samples.

Results

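Ventricles of 4 Ccl24 knockout mice were compared with those of 6 wild type mice, all taken 1 week after transverse aortic constriction (TAC), a narrowing of the aorta by surgery that raises the pressure load on the left ventricle. The 10 libraries were chosen by the genotype and surgery in their labels, out of 14 in the series, and every gene with enough reads was examined. The remaining 4 libraries came from sham-operated animals, 2 knockout and 2 wild type, also at 1 week, and served only as a second genotype comparison. Each library held the polyadenylated RNA of cardiac ventricular tissue, with counts of reads per gene as deposited. Libraries are called by their columns in the deposited count table: KT1, KT2, KT4 and KT5 for knockout TAC, WT1, WT2, WT3, WT4, WT6 and WT7 for wild type TAC, KS1 and KS2 for knockout sham, and WS1 and WS2 for wild type sham. Strain, sex and age of the mice, the way the knockout allele was made and the cell types it acts in are not stated in the labels or the design text. Group sizes match the animal numbers of the design text. Each library was therefore treated as 1 mouse, and p-values measure the spread between these libraries.

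CCL24, also called eotaxin-2, is a chemokine that acts through the receptor CCR3, which is best known from eosinophils. In the heart its transcript has been used as a marker of resident, Lyve1- and Mrc1-expressing macrophages. Pressure overload is known to enlarge cardiomyocytes and to switch on a fetal gene programme that includes Nppa, Nppb, Acta1 and Myh7. It also makes fibroblasts divide and deposit matrix, adds monocyte-derived macrophages to the resident ones, and lowers transcripts of oxidative metabolism. In tissue RNA, fewer cells of a type and less RNA per cell cannot be told apart.

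Libraries held 17072262 to 33123052 counted reads. Genes of the mitochondrial chromosome took 14.9% to 19.2% of the counts in the 4 knockout TAC libraries and 10.1% to 17.1% in the 6 wild type TAC libraries. The tissue label fitted its markers: the ventricular light chain gene Myl2 stood at 4842 to 9363 CPM (counts scaled to library size with TMM factors) over the 10 libraries, and the atrial light chain gene Myl7 at 0.175 to 1.14 CPM. Xist held 0 to 3 counts in every one of the 14 libraries, and the Y-linked gene Eif2s3y stood at 41.2 to 65.2 CPM in the 10 TAC libraries. A single library stood apart from its label: the library labelled WT1 held Ccl24 at knockout level. On the second principal component of the 1000 most variable genes, which carried 18.7% of their variance, that library lay at -7.94, between the other 5 wild type TAC libraries (2.22 to 11.7) and the 4 knockout TAC libraries (-24.2 to -11.7). On the first component, which carried 44.9%, KT1 lay at 13.8, above the other 3 knockout TAC libraries (-12.3 to 4.40). Wild type TAC libraries spread more widely there, with the library labelled WT1 at -0.22 and WT2 at -0.89, WT3, WT4 and WT6 at 22.3 to 22.5 and WT7 at 39.5. Sham libraries lay lowest on it, KS1 and KS2 at -34 and -33.4 and WS1 and WS2 at -17.1 and -20.6. The labels give no measure of the constriction in each animal, and its part in the differences between genotypes was not tested. Because of the Ccl24 level in the library labelled WT1, results are given for all 10 libraries and again without it.

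Ccl24 (ENSMUSG00000004814, GRCm38 chr5:135569937-135573049, minus strand) was counted 8, 5, 6 and 3 times in the knockout TAC libraries, in the order KT1, KT2, KT4 and KT5. WT2, WT3, WT4, WT6 and WT7 held 105, 56, 100, 69 and 94 counts, and the library labelled WT1 held 3, with an exact Poisson interval of 0.619 to 8.77 that covers counting error only. Apart from that library the groups did not overlap. The log2 fold change, knockout over wild type, was -3.44 (SE 0.65, adjusted p = 0.0091 by edgeR's quasi-likelihood test with Benjamini-Hochberg adjustment over all genes tested, as for every adjusted p here unless said otherwise), and -3.69 (adjusted p = 5.4e-06) without the library labelled WT1. That library was set apart by its Ccl24 count, so the smaller p without it follows from that choice and is no added support. That library did not hold knockout-level values throughout. Zhx2, a gene for a zinc finger and homeobox repressor, stood at 3.95 CPM in it, 1.23 to 2.28 CPM in the other 5 wild type TAC libraries and 20.6 to 25.7 CPM in the knockout TAC libraries. Zbed5 stood at 11 CPM in it, 13.4 to 18.9 CPM in the other 5 and 2.24 to 3.45 CPM in the knockouts. Whether its label is right was not tested.

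Genes that passed as lower in knockout than in wild type hearts after TAC included 17 of 30 resting fibroblast markers, 38 of 131 matrix genes, 6 of 20 clock genes and 5 of 25 pan-macrophage genes. Those that passed as higher included 23 of 44 mitosis genes, 30 of 76 respiratory chain subunits and 10 of 26 immediate early factors. In these lists 1 fibroblast marker and 1 clock gene were higher and 1 immediate early factor lower. Some genes stand in more than 1 list. Dcn, Fbln1, Col15a1 and Mmp2 count as lower both among the fibroblast markers and among the matrix genes. Of 15876 genes tested, 1483 (9.34%) passed at an adjusted p under 0.05, 589 of them higher in the knockout (3.71%) and 894 lower (5.63%). The median log2 fold change over all genes was -0.01, and 104 of the higher and 149 of the lower genes differed by at least 2-fold. Without the library labelled WT1, 2939 of 15880 genes passed (18.5%), 1350 higher (8.50%) and 1589 lower, and they held 1477 of the 1483. The number rested on single libraries in the other direction too: it was 302 without KT5, 451 without KT4 and 606 without KT2, 657, 669 and 972 without WT3, WT4 and WT6, and 951 without WS2, whose spread the fit shares. Higher and lower genes numbered 79 and 223 without KT5, 155 and 296 without KT4, and 225 and 381 without KT2. List counts with a library left out are to be read beside these totals. Without KT1, the highest knockout library on the first component, 2173 genes passed (877 higher, 1296 lower), without WT2 1609 and without WT7 1419. The plot of fold change against adjusted p shows both directions.

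**Figure D1:**
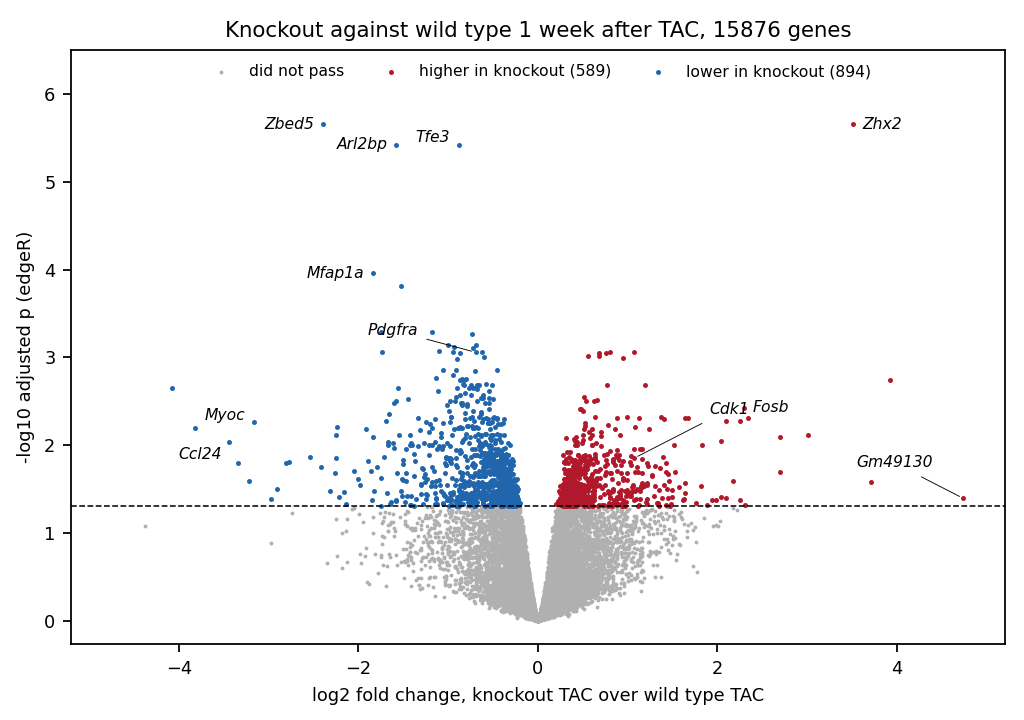
Each point is 1 of 15876 genes, with the log2 fold change of knockout over wild type after TAC on the x axis and the -log10 adjusted p of edgeR's quasi-likelihood test on the y axis. Red points (589) were higher and blue points (894) lower at an adjusted p under 0.05, marked by the dashed line; Zhx2 and Zbed5 stand at the top, and Gm49130, which was high in 1 library, has the largest fold change with a p close to the line.

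Of the called genes that reached a mean of 1 CPM in at least 1 group, those with the largest decreases beside Ccl24 included several secreted proteins. Myoc, which encodes the extracellular protein myocilin, stood at 0.629, 0.315, 0.353 and 0.804 CPM in the knockout TAC libraries (KT1, KT2, KT4 and KT5, the order used throughout), and at 1.00 at the lowest, 4.60 at the median and 8.03 CPM at the highest in wild type. Every knockout library lay below every wild type library, as for 4.08% of all genes, and the log2 fold change was -3.16 (SE 0.54, adjusted p = 0.0055). Angptl7, an angiopoietin-like secreted factor, stood at 4.94, 2.80, 3.14 and 3.68 CPM against 19.03 to 42.6 CPM in 5 wild type libraries and 3.43 CPM in the library labelled WT1, which was the lone overlap. Its log2 fold change was -2.80 (SE 0.56, adjusted p = 0.016), and -3.03 (adjusted p = 3.9e-05) without that library; leaving out KT2, KT4 or KT5 ended the call, with adjusted p up to 0.0586. Zfp979, which encodes a KRAB-type zinc finger protein of a family with near-identical copies, had the same shape, at 0.0575 to 1.17 CPM in the knockout and 0.381 CPM in the library labelled WT1 against 5.93 to 9.10 CPM in the other 5. Its log2 fold change was -3.22 (SE 0.74, adjusted p = 0.025), a call lost without KT2, KT4, KT5, WT3 or WT4 (adjusted p up to 0.0797).

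The other large decreases included the following genes. Krt18, a keratin of simple epithelia, stood at 5.21, 1.47, 1.19 and 0.862 CPM against 4.29, 15.3 and 35.9 CPM (lowest, median and highest), with a log2 change of -2.90 (SE 0.71, adjusted p = 0.032). Adamts20, a secreted metalloprotease, had a log2 change of -2.41 (adjusted p = 0.018), Lingo1, a membrane protein of neurons, -2.24 (adjusted p = 0.0062), and Ryr3, a ryanodine receptor calcium channel, -1.91 (adjusted p = 0.0065). Knockout levels of Ryr3 were 2.08 to 2.59 CPM and wild type levels 3.19 to 14.7 CPM, with no overlap. The calls for Krt18 and Adamts20 were lost without KT2, KT4 or KT5, with adjusted p up to 0.101 and 0.0567; that of Krt18 was also lost without WT3, WT4 or WS2.

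Among the increases, Zhx2 stood at 25.7, 23.1, 20.6 and 21.2 CPM against 1.23, 1.59 and 3.95 CPM (lowest, median and highest), a log2 change of 3.51 (SE 0.23, adjusted p = 2.2e-06) with no overlap, as for the 2.44% of all genes whose 4 knockout libraries all lay above wild type. Fosb, a component of the AP-1 transcription factor, stood at 1.57, 1.99, 1.502 and 2.76 CPM against 0.180 to 0.715 CPM, a log2 change of 2.29 (SE 0.39, adjusted p = 0.0038). The lowest knockout library of Fosb lay above the highest wild type library. G530011O06Rik (chrX:169975043-169978917; 3.92, adjusted p = 0.0018) and Gm47283 (chrY:90784738-90816464; 2.70, adjusted p = 0.0081) were also higher, and both lie in the pseudoautosomal region that the X and Y chromosomes share, where reads of near-identical copies cannot be told apart. H2-Q5, a nonclassical class I gene, had a log2 change of 2.25 (adjusted p = 0.0053), with KT1 at 1.26 CPM and the other 3 at 3.89 to 4.34 CPM. Its family has near-identical copies among which reads can be split, so its level is uncertain. Gm49130 showed the largest fold change (4.74, SE 1.25, adjusted p = 0.041) from 30.2 CPM in KT5; the other 3 knockout libraries held 0.404 to 0.795 CPM and the wild type libraries 0.0473 to 0.629 CPM. Without KT5, and without 10 other libraries taken out one at a time, it did not pass (adjusted p up to 0.243). It overlaps Myh6 on the opposite strand, and no source used here gives the strand setting of the counting, so reads of both genes cannot be told apart.

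Resting fibroblasts are marked by the growth factor receptor PDGFRA, the transcription factor TCF21 and a set of secreted proteins. Of 30 such markers, all tested, 17 were lower in knockout TAC hearts and 1 was higher, with a median log2 fold change of -0.54, beside 5.63% lower, 3.71% higher and a median of -0.01 over all genes. Pdgfra stood at 55.9, 48.7, 55.1 and 47.9 CPM in the knockout libraries and at 69.2 at the lowest, 85.8 at the median and 99.2 CPM at the highest in wild type. The groups did not overlap, and the wild type minimum was the library labelled WT1. The log2 fold change was -0.69 (SE 0.09, adjusted p = 0.00088). Tcf21 stood at 8.22, 10.9, 9.15 and 9.54 CPM against 14.5, 18.3 and 20.7 CPM, again without overlap, with a log2 change of -0.91 (SE 0.13, adjusted p = 0.0014). Islr (-1.31, adjusted p = 0.0067), Pi16 (-1.10, adjusted p = 0.025), a marker of adventitial fibroblasts, and Htra3 (-0.85, adjusted p = 0.0033), a secreted serine protease, passed as well, and the member that was higher was the chemokine gene Cxcl14.

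Without the library labelled WT1 the same list gave 23 lower and 2 higher, with a median of -0.59. It gave 10 lower without KT2, and 11 each without KT5, WT3 and WT4. After sham surgery none of the 30 was lower and 1 was higher, with a median of -0.12 from 2 libraries a group. Pdgfra stood at 63.2 and 65.2 CPM in knockout sham and 70.6 and 66.3 CPM in wild type sham, so the knockout TAC libraries lay below the sham levels and 5 of the 6 wild type TAC libraries above them.

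Activated fibroblasts express Postn, collagens and contractile genes. The list of 27 tested markers had the lowest median of those described (-1.04), yet 1 member passed, Sfrp1, a secreted Wnt antagonist, and the libraries were widely spread. Postn, which encodes periostin, stood at 636, 547, 198 and 336 CPM in the knockout and 470, 1229 and 2409 CPM (lowest, median and highest) in wild type. The ranges overlapped, as KT1 and KT2 lay above the 2 lowest wild type libraries, and the log2 fold change was -1.48 (SE 0.49, adjusted p = 0.079). Col1a1 at 650, 608, 312 and 387 CPM against 483, 995 and 2181 CPM gave -1.14 (SE 0.42, adjusted p = 0.099). Col3a1 at 1254, 1288, 634 and 759 CPM against 913, 1864 and 3338 CPM gave -0.94 (SE 0.36, adjusted p = 0.11). Without the library labelled WT1 the 3 genes passed at adjusted p = 0.036, 0.044 and 0.042, and 10 of the 27 markers were lower and 1 higher.

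**Figure D2:**
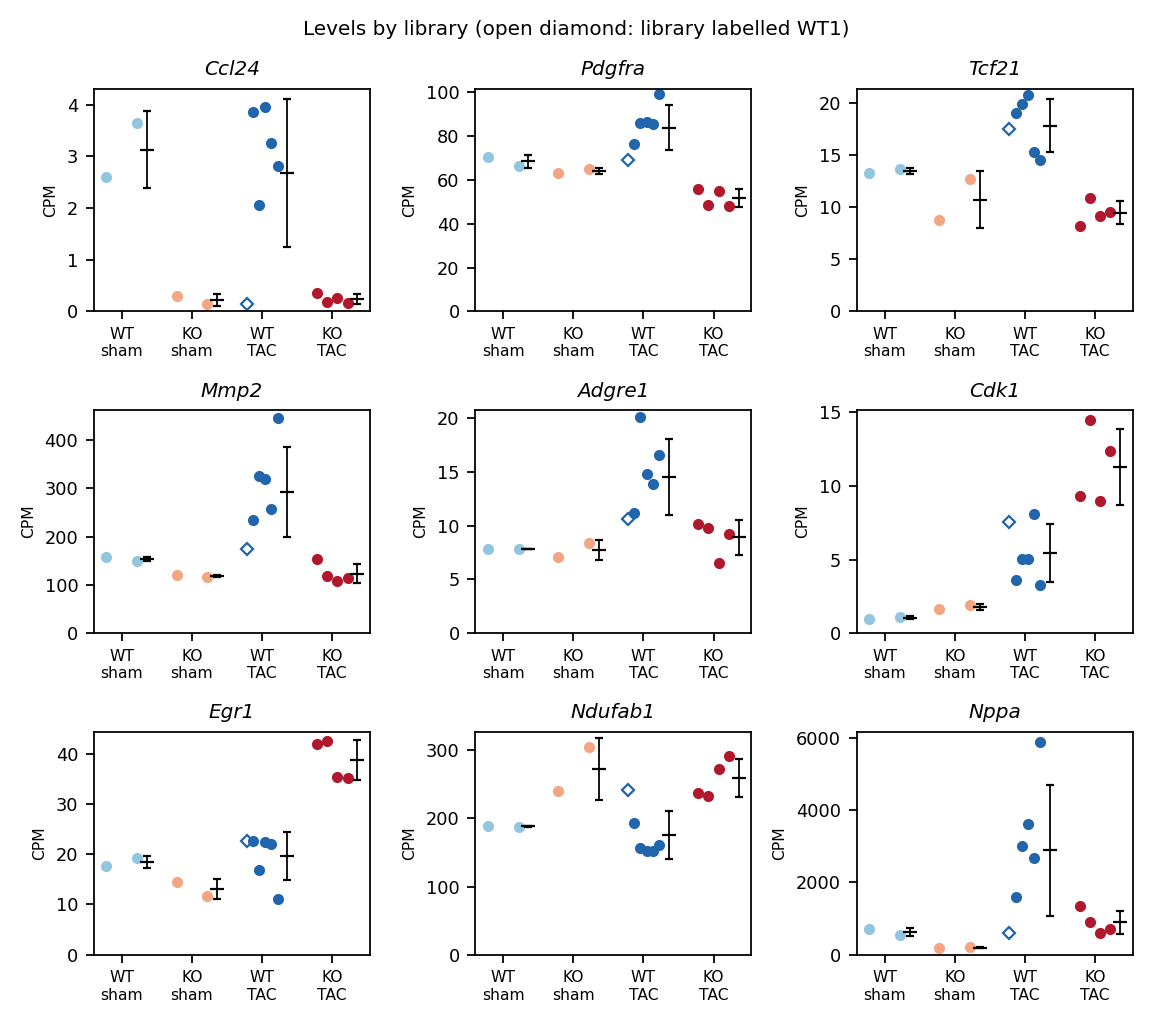
Each point is 1 library, with CPM on the y axis and the 4 groups on the x axis; bars to the right of each group give mean and SD, and the open diamond is the library labelled WT1. Pdgfra, Tcf21 and Mmp2 lay lower in all 4 knockout TAC libraries than in all 6 wild type TAC libraries, Cdk1 and Egr1 lay higher, and for Ndufab1 and Nppa the open diamond lay within the range of the knockout TAC libraries and for Ccl24 just under it.

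Extracellular matrix genes were counted in 6 lists that together held 131 tested genes of 137. Of these 131, 38 were lower and none higher in knockout TAC hearts (17 had a positive fold change), and the median log2 fold change was -0.59. By role, 1 of 9 fibrillar collagens was lower (Col5a1), 8 of 27 basement membrane and other collagens with laminins and nidogens, 8 of 24 enzymes that process or crosslink collagen, 9 of 30 matricellular proteins and proteoglycans, 5 of 15 elastic fibre and microfibril proteins, and 8 of 27 proteases and inhibitors. Some genes stand in more than 1 of these lists. The joint count was 68 lower and 1 higher without the library labelled WT1, and 57 lower without WT2. It was 17 lower without KT5, 21 without KT4, 25 without KT2, and 23 each without WT3 and WT4. After sham surgery none of the 131 passed, with a median of -0.22.

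Of the basement membrane list, nidogen and laminin genes were among the 8 that passed. Nid1, the gene for nidogen, which links laminin to collagen IV, stood at 192, 192, 195 and 184 CPM against 228, 314 and 340 CPM. All 4 knockout libraries lay close together and below every wild type library, with a log2 change of -0.66 (SE 0.10, adjusted p = 0.0021). The laminin chain genes Lamc1 (-0.69, SE 0.11, adjusted p = 0.0022) and Lama2 (-0.72, SE 0.11, adjusted p = 0.0022) were lower without overlap, and Lamb1 (-0.42, adjusted p = 0.0077) as well. For Lama2 KT1 stood at 164 CPM, apart from the other 3 knockout libraries at 128 CPM or less. Nid1 stood at 197 and 199 CPM in knockout sham and 205 and 206 CPM in wild type sham hearts, so that the knockout TAC libraries lay near the sham levels and the wild type TAC libraries above them.

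Enzymes and remodelling factors followed. Pcolce2, an enhancer of procollagen processing, stood at 19.3, 14.1, 12.9 and 15.4 CPM against 22.9, 31.1 and 43.0 CPM, a log2 change of -1.06 (SE 0.15, adjusted p = 0.0014). The collagen prolyl hydroxylase gene P3h3 (-0.63, adjusted p = 0.00997) and the lysyl oxidase-like gene Loxl4 (-1.27, adjusted p = 0.023) passed, the latter not without KT4, KT5, WT3 or WT4 (adjusted p up to 0.083). Mmp2, the gelatinase, stood at 154, 118, 108 and 115 CPM against 174, 289 and 445 CPM, a log2 change of -1.25 (SE 0.21, adjusted p = 0.0055). Timp2, which encodes an inhibitor of metalloproteinases that also takes part in activating MMP2, stood at 161, 144, 137 and 136 CPM against 200, 276 and 338 CPM, a log2 change of -0.94 (SE 0.12, adjusted p = 0.00077). For both genes the groups were separate, and the lowest wild type library was the library labelled WT1. Among proteoglycans and matricellular proteins, Prelp (-0.84, SE 0.12, adjusted p = 0.0017), Thbs2 (-1.05, SE 0.20, adjusted p = 0.010) and Sparcl1 (-0.44, SE 0.08, adjusted p = 0.0058) were lower in all 4 knockout libraries than in all 6 wild type ones. Fbln1, a fibulin of elastic fibres and basement membranes, stood at 51.0 to 64.0 CPM against 78.9 to 144 CPM, a log2 change of -0.93 (SE 0.15, adjusted p = 0.0031).

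Growth factor pathways that act on fibroblasts showed a mix of ligands, receptors and antagonists. In TGF-beta and BMP signalling 8 of 35 tested genes were lower and 1 higher, with a median log2 fold change of -0.28. Among ligands, Tgfb2 (-1.59, adjusted p = 0.042), Tgfb3 (-0.72, adjusted p = 0.0496), Bmp4 (-0.81, adjusted p = 0.0051) and Bmp6 (-0.55, adjusted p = 0.0056) were lower. The type II receptor gene Tgfbr2, at 85.3, 96.2, 75.5 and 81.2 CPM against 104, 121 and 138 CPM, was lower without overlap (-0.50, SE 0.09, adjusted p = 0.0049). The BMP target Id1 was the higher member (0.58, SE 0.13, adjusted p = 0.016), a call lost without KT2, KT4 or KT5 (adjusted p up to 0.0655). The number of lower genes in this list was 16 without the library labelled WT1 and as low as 3, for example without KT2, KT4 or KT5; 12 of the 14 libraries moved it by more than 1.5 times when left out.

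Of 23 tested Wnt ligands, receptors and antagonists, 6 were lower and none higher, with a median of -0.51. They were the secreted antagonist genes Dkk3, Wif1 and Sfrp1, the feedback gene Axin2, and the receptors Fzd1 and Fzd7; the call of Dkk3 was lost without KT5 (adjusted p = 0.0559) and that of Wif1 without KT2, KT4 or KT5 (up to 0.0714). Axin2, a direct target of beta-catenin signalling, stood at 1.62, 1.504, 1.68 and 1.09 CPM against 2.04, 3.24 and 4.00 CPM, a log2 change of -1.08 (SE 0.20, adjusted p = 0.0073) without overlap. Sfrp1 at 46.7, 44.7, 35.0 and 37.9 CPM against 51.0, 84.3 and 113 CPM gave -1.01 (SE 0.19, adjusted p = 0.0094). In the list of IGF, PDGF, FGF and EGF family genes 5 of 37 were lower and 1 higher. Fgfr1, a receptor of fibroblast growth factors, stood at 47.4 to 59.6 CPM against 67.6 to 108 CPM (-0.76, SE 0.12, adjusted p = 0.0022), and the IGF binding protein gene Igfbp6 at 20.4 to 24.6 CPM against 29.3 to 87.4 CPM (-1.27, SE 0.24, adjusted p = 0.0095). Pdgfb, an endothelial ligand for pericytes, was the higher one (0.37, SE 0.10, adjusted p = 0.031), not passing without KT4, KT5, WT4 or WT6 (adjusted p up to 0.117). The lower genes of the Wnt list numbered 10 without the library labelled WT1 and 2 without KT5, and those of the growth factor list 12 and 3.

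Macrophage genes were lower in part. Of 25 pan-macrophage genes, 5 were lower (Adgre1, Csf1r, Mpeg1, Tyrobp and C1qa) and none higher, with a median log2 fold change of -0.48; 22 of 25 had a negative fold change. Csf1r, the receptor for the growth factor that maintains macrophages, stood at 68.6, 71.0, 51.0 and 57.8 CPM against 63.3, 91.3 and 122 CPM. The overlap came from the library labelled WT1, as the other 5 wild type libraries held at least 84.2 CPM, and the log2 fold change was -0.58 (SE 0.15, adjusted p = 0.028). The list gave 14 lower without the library labelled WT1 and 0 without KT4 or KT5, and 2 or 3 without KS1 or KS2, WS1 or WS2, or WT3, WT4 or WT6. Over all genes the lower calls numbered 894 with every library, 1589 without the library labelled WT1, 296 without KT4 and 223 without KT5. Cd68, a lysosomal macrophage marker, did not pass (-0.36, SE 0.13, adjusted p = 0.091).

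Resident macrophage genes other than Ccl24 gave 3 lower genes of 18. Cd163, the haemoglobin scavenger receptor gene, stood at 9.84, 10.5, 10.2 and 9.77 CPM against 10.8, 18.3 and 20.8 CPM, with no overlap. Its log2 fold change was -0.79 (SE 0.15, adjusted p = 0.0061), and -0.90 (adjusted p = 4.8e-05) without the library labelled WT1, which held the 10.8 CPM. Mrc1, the mannose receptor gene, had -0.60 (SE 0.13, adjusted p = 0.013) and F13a1, a transglutaminase gene, -0.37 (SE 0.11, adjusted p = 0.041). The call of Mrc1 was lost without KT5 (adjusted p = 0.0582), and that of F13a1 with any 1 of 7 libraries left out (adjusted p up to 0.143). Of 17 tested monocyte and recruited macrophage genes, Gpnmb was lower (-1.51, adjusted p = 0.024) and Fabp5 higher (0.75, adjusted p = 0.0009).

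Among 32 tested chemokine and chemokine receptor genes 4 were lower and 4 higher. Apart from Ccl24, the lower ones were the atypical receptors Ackr1, Ackr2 and Ackr4, which bind chemokines without classical signalling and take them up. Ackr4 stood at 8.67, 6.33, 6.85 and 7.01 CPM against 10.8, 22.01 and 37.2 CPM (-1.66, SE 0.26, adjusted p = 0.0044). Ackr2 stood at 4.94, 5.42, 5.43 and 3.96 CPM against 7.63, 8.68 and 9.65 CPM (-0.82, SE 0.13, adjusted p = 0.0026), and for both genes the groups were separate. The higher ones were the monocyte chemokines Ccl2 (1.07, adjusted p = 0.042) and Ccl7 (1.15, adjusted p = 0.029), Cxcl14 (0.90, adjusted p = 0.015) and Ccl11, or eotaxin-1, the other eotaxin gene of the list. Ccl11 stood at 2.83, 2.17, 3.40 and 1.67 CPM against 1.04, 1.31 and 2.13 CPM, so that KT5 lay within the wild type range, and its call (0.84, SE 0.25, adjusted p = 0.046) was lost with any 1 of 12 libraries left out (adjusted p up to 0.166). The count of higher chemokine genes fell to 0 without KT4 and was 5 without the library labelled WT1.

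Receptors and markers of eosinophils were near the floor. Ccr3, the CCL24 receptor gene, was counted 4 times over the 10 TAC libraries, and none of 11 eosinophil genes had enough reads to be tested. Epx, Ear1, Ear6 and Il4 were at 0 counts in all 10, and the list summed to 0.210 to 0.712 CPM in wild type and 0.315 to 0.560 CPM in knockout TAC libraries. A difference in eosinophil genes was therefore not detectable at this depth.

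Complement genes beyond C1q were lower in 7 of 21, with none higher and a median of -0.25. C7, a component of the membrane attack complex, stood at 19.7, 17.2, 17.4 and 15.4 CPM against 26.9, 39.6 and 49.5 CPM, a log2 change of -1.18 (SE 0.14, adjusted p = 0.00051). Serping1, the C1 inhibitor gene, stood at 162 to 200 CPM against 230 to 374 CPM (-0.74, SE 0.12, adjusted p = 0.0027), and Cd55, a brake on complement at cell surfaces, at 12.9 to 17.6 CPM against 21.2 to 28.1 CPM (-0.59, SE 0.10, adjusted p = 0.0033). None of these 3 overlapped between groups, and all 3 passed with any 1 library left out. The list gave 8 lower and 1 higher without the library labelled WT1 and 4 lower without KT5.

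In lists of inflammation the numbers were small. Of 36 genes of inflammatory cytokine signalling 5 were lower, among them Vcam1, an adhesion molecule for leukocytes (-0.63, SE 0.11, adjusted p = 0.0044), and the interleukin-6 receptor genes Il6ra (-0.53, SE 0.13, adjusted p = 0.021) and Il6st (-0.36, SE 0.08, adjusted p = 0.014). Without KT4 or KT5 the count was 1, and the calls of Il6ra and Il6st were lost (adjusted p up to 0.069 and 0.0634). None of 39 interferon response genes passed, with a median of 0.31 (0.36 after sham), and 7 were higher without the library labelled WT1. None of the tested T and NK cell (14), B and plasma cell (14), neutrophil (11) or mast cell (6) genes passed.

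Lysosomal genes were lower in 10 of 30 with none higher (median -0.28), a count of 16 without the library labelled WT1, 1 without KT5, 2 each without KT2 and KT4, and 3 each without WT3 and WT4. Lower calls over all genes were 223 without KT5, 381 without KT2 and 296 without KT4, beside 894 with every library. Ctsk, a collagen-degrading cathepsin of fibroblasts and macrophages, stood at 15.99, 13.4, 12.2 and 12.6 CPM against 18.5, 34.7 and 56.1 CPM, with no overlap. Its log2 fold change was -1.41 (SE 0.26, adjusted p = 0.010).

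Of 30 load-induced cardiomyocyte genes 1 was lower (Mybpc2, a fast-type myosin binding protein gene) and none higher, with a median of -0.27 after TAC and -0.39 after sham. Leaving out the library labelled WT1 gave 5 lower (Mybpc2, Nppa, Gdf15, Uchl1 and Xirp2) and 1 higher (Hspb6), with a median of -0.32. Nppa, the atrial natriuretic peptide gene, stood at 1343, 905, 599 and 715 CPM in the knockout and at 606, 2827 and 5881 CPM (lowest, median and highest) in wild type. The lowest wild type value was the library labelled WT1, and the other 5 lay at 1590 CPM or more, above all 4 knockout libraries. The log2 fold change was -1.70 (SE 0.51, adjusted p = 0.059), and -1.91 (adjusted p = 0.0056) without that library. In sham hearts Nppa stood at 181 and 203 CPM in the knockout and 705 and 541 CPM in wild type, a log2 change of the same size (-1.70) that did not pass with 2 libraries a group.

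Nppb, the brain natriuretic peptide gene, showed no such separation, at 1286, 911, 830 and 895 CPM against 558, 863 and 1318 CPM (0.16, SE 0.19, adjusted p = 0.63). Acta1, skeletal actin, at 9993 to 16543 CPM against 9288 to 19598 CPM gave -0.17 (SE 0.18, adjusted p = 0.55). The myosin heavy chain genes Myh6 (0.05, SE 0.14) and Myh7 (-0.05, SE 0.17) did not pass either. Of 29 genes of contraction and ion handling Tnni3, the cardiac troponin I gene, was higher (0.49, adjusted p = 0.046), and 5 were higher without the library labelled WT1.

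Of 76 nuclear-encoded subunits of respiratory complexes I to V, which carry out oxidative phosphorylation, 30 passed as higher in the knockout and none as lower, 15 of 36 in complex I and 15 of 40 in complexes II to V. All 76 had a positive log2 fold change (0.12 to 0.63, median 0.34). Ndufab1, the acyl carrier protein of complex I, stood at 238, 234, 273 and 292 CPM against 152, 158 and 241 CPM. The highest wild type value was the library labelled WT1, and the other 5 lay at or below 193 CPM. Its log2 fold change was 0.56 (SE 0.13, adjusted p = 0.017), and 0.67 (adjusted p = 0.00054) without that library. Cox5a, a subunit of cytochrome c oxidase, stood at 734, 686, 804 and 781 CPM against 478, 528 and 679 CPM, with no overlap (0.45, SE 0.10, adjusted p = 0.017). Atp5g3, a subunit of the ATP synthase rotor, had 0.55 (SE 0.13, adjusted p = 0.019).

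These calls depended on single libraries. Without the library labelled WT1, 67 of the 76 subunits passed as higher, and without KT4 or KT5 none did. The count was 11 without KT2 or WT6, 12 without either wild type sham library and 4 without WT3 or WT4. Higher calls over all genes moved in the same directions, from 589 to 1350 without the library labelled WT1, 155 without KT4 and 79 without KT5. The calls of Ndufab1, Cox5a and Atp5g3 were lost without KT4 or KT5, with adjusted p up to 0.0738, 0.0669 and 0.0758. After sham surgery the 76 subunits had a median of 0.39, with none passing. Transcripts of the mitochondrial chromosome were also at a higher share in the knockout TAC libraries (16.5% ± 1.90, SD, n = 4, against 13.9% ± 2.77, n = 6), with overlapping ranges. Their part in the result was not tested beyond a fit without all genes of that chromosome, in which 44 of the 76 passed.

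Other lists of mitochondrial genes were counted beside them. Mitochondrial ribosomal protein genes were higher in 18 of 48 (median 0.27; 37 without the library labelled WT1, 3 without KT4 or KT5), beside none of 59 cytosolic ribosomal protein genes (median 0.03). Mrps17, a protein of the small mitochondrial ribosomal subunit, stood at 70.8, 62.7, 71.1 and 66.5 CPM against 37.5, 40.7 and 53.5 CPM, a log2 change of 0.68 (SE 0.09, adjusted p = 0.00096) that passed with any 1 library left out. Its log2 change after sham was 0.58. It lies at -5858 kb from Ccl24 on the same chromosome, and the part of that position was not tested. Fatty acid oxidation genes were higher in 5 of 34 (17 without the library labelled WT1, 0 without KT4 or KT5) and tricarboxylic acid cycle genes in 4 of 20 (12 and 0). Pdk4, a kinase that shuts off pyruvate dehydrogenase and so favours fat as fuel, stood at 290, 240, 303 and 527 CPM against 97.4, 155 and 234 CPM (1.15, SE 0.26, adjusted p = 0.021). All 4 knockout libraries lay above wild type, KT5 farthest, and the call was lost without KT4 or KT5 (adjusted p up to 0.0726). In sham hearts Pdk4 stood at 996 and 617 CPM in knockout and 182 and 193 CPM in wild type.

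Cell division genes were counted in 3 lists. All 44 genes of mitosis and chromosome segregation had a positive fold change, and 23 passed as higher, with a median log2 fold change of 0.88 and a range of 0.24 to 1.34. These genes are known to be switched on together late in the cell cycle, by factors that bind CCAAT boxes (NF-Y) and the cell cycle homology region, or CHR (the DREAM and MuvB complexes). The 250 bases before the start of 3 of them are shown because these genes carry both elements. They are from RefSeq (GRCm38.p6), 5′ to 3′ on the gene's strand, with CCAAT boxes (CCAAT, or ATTGG on the other strand) and the CHR motif (TTTGAA, or TTCAAA on the other strand) in capitals. All 3 genes lie on the minus strand, Cdk1 at chr10:69352913-69353162, Ccnb2 at chr9:70421555-70421804 and Mki67 at chr7:135716380-135716629.
Cdk1: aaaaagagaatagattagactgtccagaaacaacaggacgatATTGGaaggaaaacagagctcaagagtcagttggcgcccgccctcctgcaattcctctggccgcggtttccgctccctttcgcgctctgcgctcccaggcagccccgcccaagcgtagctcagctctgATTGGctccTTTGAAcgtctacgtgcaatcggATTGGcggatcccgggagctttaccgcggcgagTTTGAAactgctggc
Ccnb2: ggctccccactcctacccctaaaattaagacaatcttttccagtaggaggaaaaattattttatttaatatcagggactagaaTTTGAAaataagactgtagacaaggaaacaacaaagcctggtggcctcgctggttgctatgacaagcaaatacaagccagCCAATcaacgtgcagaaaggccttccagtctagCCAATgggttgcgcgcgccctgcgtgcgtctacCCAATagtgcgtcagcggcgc
Mki67: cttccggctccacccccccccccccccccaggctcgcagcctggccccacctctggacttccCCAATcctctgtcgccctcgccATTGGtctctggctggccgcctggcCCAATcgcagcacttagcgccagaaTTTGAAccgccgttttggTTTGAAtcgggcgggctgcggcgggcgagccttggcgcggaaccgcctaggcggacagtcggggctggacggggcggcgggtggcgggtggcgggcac

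Each of the 3 sequences holds 3 CCAAT boxes, and Cdk1 and Mki67 hold 2 CHR motifs and Ccnb2 1. Among the 39 mitosis genes with a RefSeq promoter, 28 held a CCAAT box (71.8%) and 13 a CHR motif (33.3%), against 34.5% and 16.3% of 27025 promoters of the same length. Among the 21 of them that were higher in the knockout, 15 held a CCAAT box and 10 a CHR motif. A match of letters is a description and not a binding site.

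Cdk1, the kinase that drives entry into mitosis, stood at 9.34, 14.5, 8.97 and 12.4 CPM in the knockout and at 3.30, 5.03 and 8.08 CPM (lowest, median and highest) in wild type, a log2 change of 1.07 (SE 0.23, adjusted p = 0.014) with no overlap. Mki67, the proliferation antigen gene, stood at 31.1, 53.6, 28.6 and 39.6 CPM against 10.4, 19.03 and 26.5 CPM, also without overlap (1.04, SE 0.22, adjusted p = 0.017). Ccnb2, a mitotic cyclin gene, stood at 5.48, 8.22, 3.89 and 6.38 CPM against 2.24, 2.78 and 4.48 CPM (1.02, SE 0.23, adjusted p = 0.016), where the library labelled WT1 held the highest wild type value and was the lone overlap. In sham hearts the 3 genes were lower than after TAC in each genotype, with Cdk1 at 1.64 and 1.91 CPM in knockout and 0.981 and 1.12 CPM in wild type.

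The 3 calls were lost without KT5, and those of Cdk1 and Ccnb2 also without KT2, which held the highest value (adjusted p up to 0.0571 for Cdk1, 0.0634 for Ccnb2 and 0.0586 for Mki67). The list gave 35 higher genes without the library labelled WT1, 1 without KT2, 0 without KT5, 5 without WT3 and 9 without WT4. Over all genes the higher calls numbered 589 with every library, and 1350, 225, 79, 234 and 232 in the same order. Of 42 DNA replication genes 3 were higher (Pcna, Cdc6 and E2f2), with a median of 0.47, 14 without the library labelled WT1 and 0 without KT2, KT4 or KT5. None of 22 G1 cyclins and cyclin-dependent kinase inhibitors passed (median 0.03). Red cell genes were measured beside this list. The erythroid markers summed to 254 to 937 CPM in knockout and 193 to 294 CPM in wild type TAC libraries, and none of 6 tested passed (median 1.05). KT2 was highest both for Mki67 and for the globin gene Hba-a1 (310 CPM). Slc4a1 was too low to be tested, and the part of red cell precursors in the result was not tested.

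Immediate early genes, which are transcribed within minutes of a growth factor, stretch or calcium signal, were higher in 10 of 26 with 1 lower (Ier3), a median of 0.34. Egr1, a zinc finger transcription factor, stood at 41.8, 42.6, 35.3 and 35.2 CPM against 11.1, 22.2 and 22.6 CPM, a log2 change of 0.99 (SE 0.16, adjusted p = 0.0048). Jun, the AP-1 partner of the Fos proteins, stood at 74.8, 80.2, 69.5 and 77.2 CPM against 44.8, 50.7 and 58.3 CPM (0.56, SE 0.08, adjusted p = 0.00096). The groups were separate for both. After sham the medians pointed the other way (-0.13 for the list), with Egr1 at 14.5 and 11.7 CPM in knockout and 17.6 and 19.2 CPM in wild type. The list gave 10 higher without the library labelled WT1 and 6 without KT5.

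A list of genes that feed back on MAP kinase signalling, together with other genes induced with these factors, was higher in 5 of 21 and lower in 2, with a median of -0.07. Dusp1, a phosphatase that switches off MAP kinases, stood at 82.1, 63.8, 84.1 and 89.2 CPM against 31.4, 41.8 and 52.8 CPM (0.95, SE 0.13, adjusted p = 0.0010). Apold1, an early response gene of endothelial cells, stood at 25.2, 28.3, 26.7 and 31.5 CPM against 10.7, 12.2 and 19.3 CPM (1.07, SE 0.14, adjusted p = 0.00087). Sik1, a salt-inducible kinase, stood at 53.7, 46.8, 40.3 and 51.6 CPM against 26.5, 29.8 and 33.1 CPM (0.68, SE 0.09, adjusted p = 0.00090). All 3 were separate between the groups and passed with any 1 library left out. They had sham log2 fold changes of -0.06, -0.58 and -0.41; for Sik1 the sham levels were 26.8 and 20.8 CPM in knockout and 32.1 and 31.2 CPM in wild type. The lower members were Gadd45b (-1.06, adjusted p = 0.0056) and Etv5 (-0.51, adjusted p = 0.013).

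Circadian clock genes were lower in 6 of 20 and higher in 1, with a median of -0.39 (-0.66 after sham). The clock runs on the activator BMAL1, encoded by Arntl, and on repressors such as CRY1 and CRY2 that accumulate in the opposite phase. Arntl was the higher gene (1.33, adjusted p = 0.046), and Cry1, Cry2, Bhlhe41, Hlf, Tef and Rora were lower. Cry2 stood at 30.1, 23.9, 27.3 and 25.6 CPM against 30.7, 41.9 and 49.97 CPM (-0.63, SE 0.12, adjusted p = 0.0077), and Cry1 at 4.99, 5.39, 6.36 and 6.49 CPM against 6.53, 10.7 and 14.2 CPM (-0.82, SE 0.18, adjusted p = 0.013). Both were separate between groups by a narrow margin at the top of the knockout range, and the call of Bhlhe41 was lost without KT5 (adjusted p = 0.0586). Rora, a nuclear receptor gene of the clock, had -0.50 (SE 0.13, adjusted p = 0.029), a call lost without KT2, KT4, KT5, WT3, WT4 or WT6 (adjusted p up to 0.102). The labels do not give the hour at which hearts were taken. The list gave 8 lower without the library labelled WT1, 2 without KT5, and 3 without KT2, KT4, WT3, WT4 or WT6.

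Protein folding genes showed small fold changes. Of 23 endoplasmic reticulum chaperones and folding factors 4 were lower (P4hb, Sel1l, Xbp1 and Ero1l), beside 5.63% of all genes. The median was -0.18, and 22 of the 23 had a negative fold change. None was lower without KT4, KT5 or WT4. Of 23 heat shock chaperones Dnaja1 (0.36, adjusted p = 0.047) and Dnajb1 (0.52, adjusted p = 0.0028) were higher.

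Vascular genes were counted by cell type. Of 25 endothelial genes 4 were higher (Cldn5, Egfl7, Robo4 and Cd36) and 1 was lower (Vwf), beside 3.71% higher and 5.63% lower over all genes. The median was 0.22, and 20 of the 25 had a positive fold change. The pan-endothelial gene Pecam1 did not pass (0.15, SE 0.09, adjusted p = 0.27). Vwf, the von Willebrand factor gene, stood at 59.8, 39.2, 47.7 and 50.7 CPM against 66.5, 71.0 and 92.3 CPM (-0.59, SE 0.13, adjusted p = 0.015), and Cldn5, a tight junction gene, at 29.5, 44.4, 44.0 and 58.1 CPM against 15.98, 23.7 and 38.2 CPM (0.88, SE 0.24, adjusted p = 0.042). Without KT4 or KT5 neither passed and no endothelial gene was higher, and the call of Cldn5 was also lost with any 1 of 8 other libraries left out (adjusted p up to 0.134); 7 were higher without the library labelled WT1. Of 20 pericyte and smooth muscle genes Smtn was higher (0.52, adjusted p = 0.041, lost with any 1 of 11 libraries left out, up to 0.13). None of 7 lymphatic endothelial genes and none of 6 tested adipocyte genes passed, and the defining adipocyte genes Adipoq, Plin1 and Cidec were too low to be tested.

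Of 7 tested endocardial genes 2 were lower and none higher (median -0.26), Vwf and Bmp6, a BMP ligand gene. Bmp6 stood at 22.9, 16.7, 24.2 and 20.3 CPM against 26.2 to 32.3 CPM, with no overlap, and passed with any 1 library left out. Of 11 tested atrial genes 2 were lower and none higher (median -0.07), Dkk3 and Pam, which encodes an enzyme that amidates peptides. Pam stood at 1011, 681, 592 and 615 CPM against 816 to 1385 CPM, so that KT1 lay within the wild type range. It had a log2 change of -0.62 (SE 0.17, adjusted p = 0.035), a call lost with any 1 of 7 libraries left out (adjusted p up to 0.123). Of 17 tested MHC class II and dendritic cell genes Irf8, a transcription factor gene of dendritic cells and macrophages, was lower (-0.41, SE 0.12, adjusted p = 0.049). A short list of sex-linked genes held 4 tested Y-linked genes, of which Eif2s3y was higher. It stood at 59.2, 56.2, 64.3 and 65.2 CPM against 41.2 to 55.3 CPM (0.34, SE 0.08, adjusted p = 0.019). That call was lost without KT4 or KT5 (adjusted p up to 0.0775). Over all of chromosome Y, 3 of 7 tested genes were higher.

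Epicardial and mesothelial genes gave 1 higher and 1 lower of 12, with 9 positive fold changes and a median of 0.62 (-0.20 after sham). Members ran in both directions, from -2.90, the value given above for Krt18, to 1.99 for Upk3b. Upk3b, a uroplakin gene of mesothelium, stood at 2.52, 2.87, 3.23 and 2.82 CPM against 0.142, 0.452 and 2.35 CPM, where WT3 held the highest value and the others at most 0.551 CPM. Its log2 fold change was 1.99 (SE 0.56, adjusted p = 0.042), a call lost with any 1 of 9 libraries left out (adjusted p up to 0.107). After sham the log2 change of Upk3b was -0.17. The gene starts 465 kb from Ccl24, and the part of that position was not tested. Of 12 Schwann cell genes the myelin gene Pmp22, which fibroblasts also express, was lower (-0.71, SE 0.14, adjusted p = 0.0078) and Kcna1 higher (0.97, SE 0.29, adjusted p = 0.049), the latter not passing with any 1 of 11 libraries left out (adjusted p up to 0.159).

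**Figure D3:**
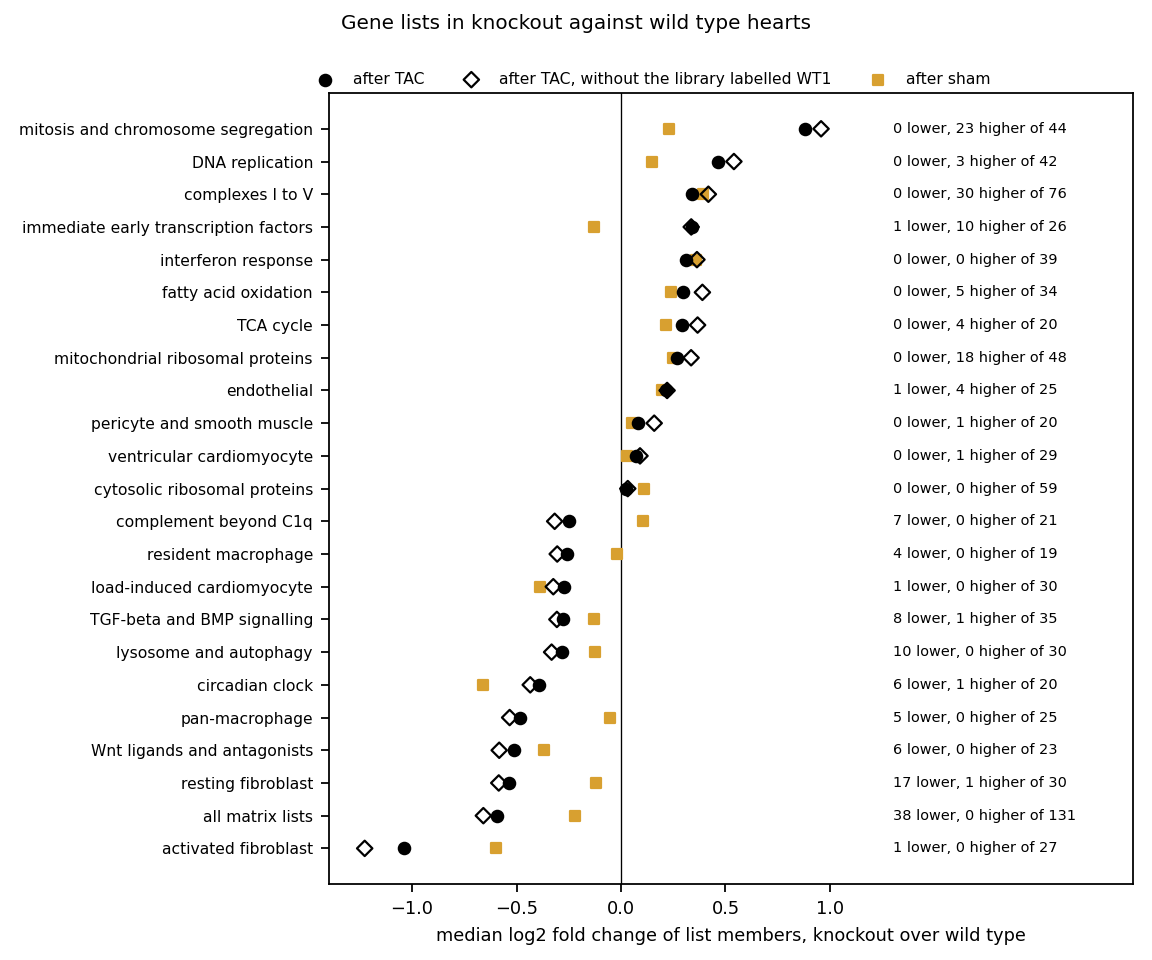
Each row is a gene list, with the median log2 fold change of knockout over wild type on the x axis after TAC (filled circles), after TAC without the library labelled WT1 (open diamonds) and after sham (squares); the text at the right counts members that passed after TAC. Fibroblast and matrix lists lie left of 0 and, of the lists drawn, mitosis lies farthest right (median 0.88), and leaving out that library moved most medians away from 0.

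The share of called genes near Ccl24 was close to that of all genes. Of 226 genes tested within 10 Mb of the start of Ccl24, not counting Ccl24, 21 passed (9.29%), against 8.28% of 592 genes farther than 20 Mb away on chromosome 5 and 9.34% of all genes. Within 1 Mb 4 of 37 passed (10.8%). The share per autosome ran from 6.16% on chromosome 14 to 10.95% on chromosome 10, and was 9.22% on chromosome X. Of 22 genes tested on the mitochondrial chromosome 3 passed (13.6%), and of 7 on chromosome Y 3 (42.9%), all 6 higher. The nearest called gene was Por, which encodes the electron donor of microsomal cytochrome P450 enzymes and starts 97 kb away. It stood at 42.5, 36.0, 37.8 and 37.8 CPM against 42.9, 73.4 and 93.7 CPM (-0.93, SE 0.17, adjusted p = 0.0065), with the library labelled WT1 next to the knockout libraries at 42.9 CPM and the other 5 at 67.4 CPM or more. In sham hearts Por stood at 47.2 and 43.2 CPM in knockout and 97.0 and 95.6 CPM in wild type. Zbed5, at -5677 kb from Ccl24, was the largest change in the window apart from Ccl24 itself (-2.39, SE 0.17, adjusted p = 2.2e-06). Without the library labelled WT1, 40 of the 226 passed (17.7%, beside 18.5% of all genes); 9 passed without KT4 or KT5, 11 without WT3 or WT4, 13 without KT2 or WT6, and 34 without KT1.

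**Figure D4:**
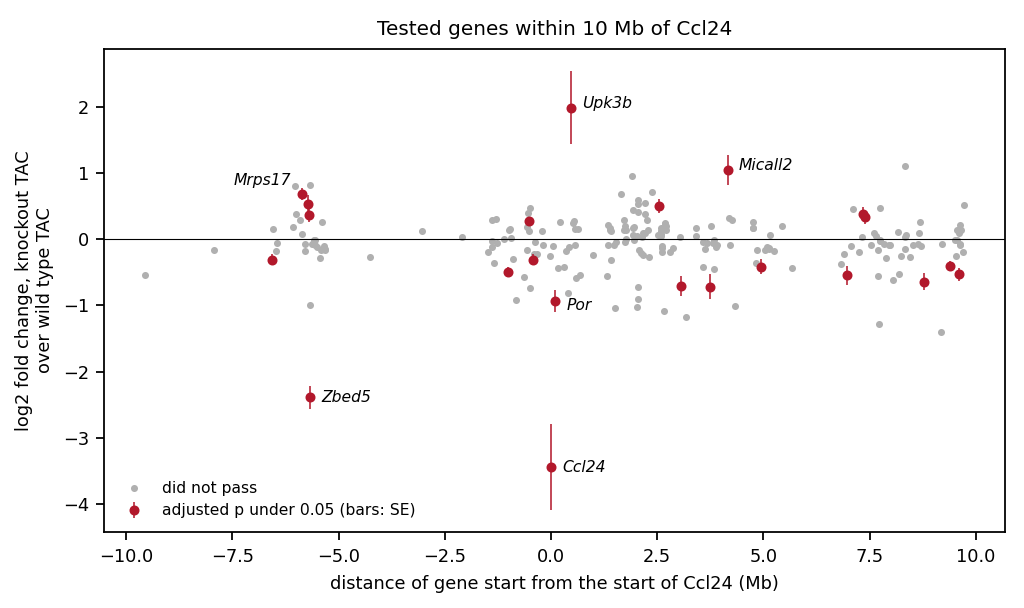
Each point is 1 tested gene, with the distance of its start from the start of Ccl24 in Mb on the x axis and the log2 fold change after TAC on the y axis; red points passed, with bars for the SE. Ccl24 itself (-3.44) and Zbed5 (-2.39) stand lowest, and the other called genes are spread over the 10 Mb on either side.

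The same genotypes were compared in the 4 sham libraries, which share no library with the TAC comparison but share its estimate of spread. There 20 of 15876 genes passed (0.126%), 6 higher (0.0378%) and 14 lower (0.0882%), and 15 of these also passed after TAC, all in the same direction. These 15 are 75% of the sham calls and 1.01% of the TAC calls. Ccl24 itself did not pass after sham, although it was counted 6 and 3 times in knockout and 61 and 72 times in wild type sham libraries. Its log2 fold change there was -3.755. With 2 libraries a group, a gene that did not pass after sham was therefore not shown to be unchanged. Arl2bp, whose product binds the GTPase ARL2, stood at 31.9, 23.7, 23.6 and 26.03 CPM in knockout TAC and 54.9, 82.9 and 88.4 CPM in wild type TAC libraries, and at 29.8 and 27.5 against 86.5 and 85.7 CPM in sham (log2 fold change -1.58 after TAC and -1.59 after sham). The library labelled WT1 held the 54.9 CPM, between the groups. Mfap1a, a spliceosome component, had -1.84 and -1.83, Zbed5 -2.39 and -2.31, and Zhx2 3.51 and 4.33. Tfe3, an X-linked gene for a lysosomal stress transcription factor that was named after its values were seen, had -0.88 and -1.01. Fgf6 (-0.91 and -2.02), D430019H16Rik (-1.44 and -2.51) and Patj (-0.95 and -1.11) were lower, and Fabp7 (2.09 and 4.36), Cxcl14 (0.90 and 2.09) and Abracl (0.61 and 1.09) higher, in both; the TAC calls of Fgf6 and Cxcl14 were lost without KT4, and that of Fgf6 also without KT5 (adjusted p up to 0.0583).

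Of the 1483 genes called after TAC, 1350 had the same sign after sham. The 589 higher genes had medians of 0.50 after TAC and 0.33 after sham, and the 894 lower ones -0.54 and -0.32. The interaction of genotype and surgery, which tests whether the 2 genotype differences differ, gave 0 genes at an adjusted p under 0.05 by edgeR. At an unadjusted p under 0.05 it gave 647 of 15876, fewer than the 1 in 20 that chance gives. DESeq2 called 6 at an adjusted p under 0.05 and limma voom 8. The lowest adjusted p was 0.107, for Sik1 and Apold1, with log2 interaction terms of 1.09 (SE 0.17) and 1.65 (SE 0.27). Without the library labelled WT1 3 genes passed, and 1 passed without KT4 and 1 without WT7. Genes called after TAC and not after sham were therefore not shown to differ between the surgeries.

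**Figure D5:**
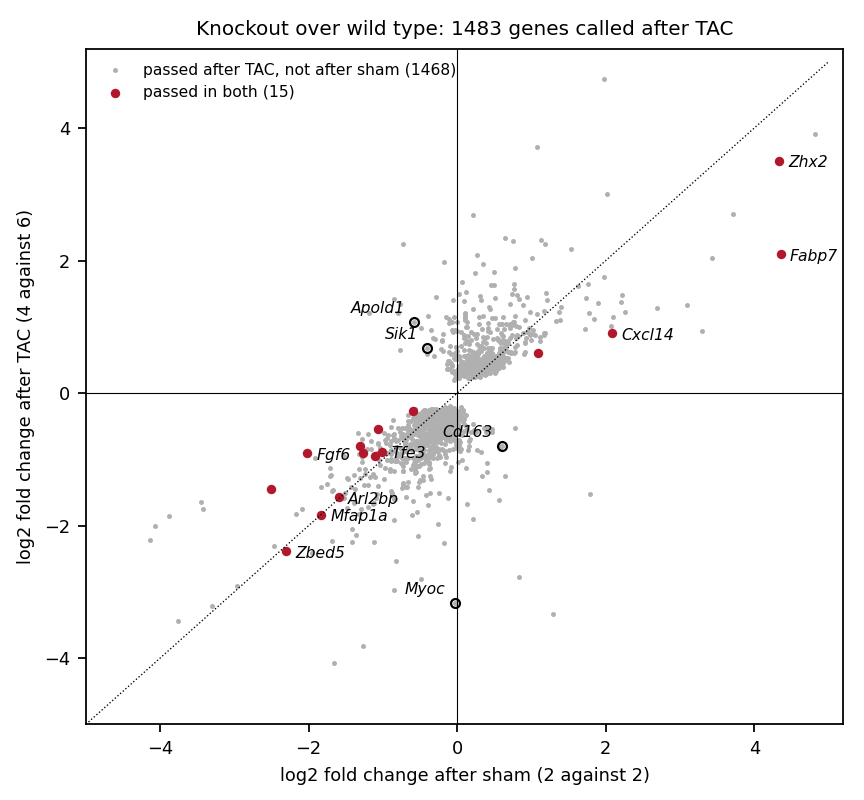
Each point is 1 of the 1483 genes called after TAC, with the log2 fold change of knockout over wild type after sham (2 libraries against 2) on the x axis and after TAC (4 against 6) on the y axis; red points (15) passed in both, and the dotted line marks equal change. The 15 lie in the same direction on both axes, and Sik1, Apold1, Myoc and Cd163 (open circles) are among the genes that lie off the line.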

How the data were processed

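The authors deposited raw read counts per gene for 14 poly(A) RNA libraries of ventricular tissue. Per the submitters' processing notes, the tools and genome were HISAT2 2.1.0, FastQC, featureCounts, edgeR and GRCm38; neither the strand setting of the counting nor the treatment of multi-mapping reads is stated. Of 54532 gene identifiers, 54495 matched the GENCODE M21 annotation, which gave positions. Groups were taken from the labelled genotype and surgery. Low-count genes were removed with filterByExpr, libraries were scaled by TMM, and 1 model with 4 groups was fitted to all 14 libraries with edgeR 4.0.16 (R 4.3.3), using the quasi-likelihood test with Benjamini-Hochberg adjustment and a threshold of 0.05. CPM used TMM-scaled library sizes, is not per gene length, and compares 1 gene between libraries only. Alternatives were RLE scaling, DESeq2 1.42.0, limma 3.58.1 (voom with sample weights), 2 other low-count filters, the 2 TAC groups alone, the replicate number as a block, removal of mitochondrially encoded genes, and leaving out each library; the 2 TAC groups alone without the library labelled WT1 were added after seeing the data. The script was tested on simulated data. Genes were named by this rule: Ccl24; the 12 higher and 12 lower called genes with the largest change and a group mean of 1 CPM or more; up to 4 genes of smallest p in each list described; a fixed set of stromal, load and macrophage genes; and up to 6 genes in each direction called after both surgeries. A list was described if 3 members or 20% passed, or if it marks a cell type or tissue quality. A few list members are not reported here and were left out of the counts. Other genes were named after their values were seen, as were those that complete a short list of called members. The comparison, its members and the gene lists were chosen with earlier results of these data known. Promoters came from the RefSeq table, which starts each window 250 bases before the gene start.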

Additional observations from a re-analysis of the deposited data

Results flagged for a closer look

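In 25 of 376 gene and group combinations tested, 1 library lay farther from the other libraries of its group than Dixon's 95% limit allows, where chance gives about 1 in 20. Among the 6 wild type TAC libraries, the library labelled WT1 was lowest for Ccl24 (0.143 CPM), Zfp979 (0.381 CPM), Angptl7 (3.43 CPM), Cd68 (13.4 CPM), Mfap1a (13.3 CPM), Arl2bp (54.9 CPM) and Bmp6 (26.15 CPM), and highest for Cd36 (1146 CPM), Mrps17 (53.45 CPM) and Mrps30 (32.96 CPM). In each of these 10 genes it lay on the side of the knockout libraries. Among the 4 knockout TAC libraries, KT1 was lowest for H2-Q5 (1.258 CPM) and Cpt1b (1.57 CPM) and stood apart for Lama2 (164.1 CPM), Id1 (45.96 CPM), Egfl7 (93.5 CPM), Sel1l (61.46 CPM) and Ctsl (217.4 CPM).

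Of the remaining 8 values, KT5 held Gm49130 at 30.17 CPM, KT4 held Reln at 7.115 CPM and KT2 held Ndufs3 at 347.7 CPM. In wild type TAC, WT3 held Upk3b at 2.347 CPM, WT6 Emilin2 at 14.9 CPM, WT2 Vwf at 92.3 CPM and Kcna1 at 0.772 CPM, and WT7 Xbp1 at 94.7 CPM.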

How the results depend on the processing

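The gene counts changed with the libraries in the fit and with the tool. Against 1483 genes called after TAC (589 higher, 894 lower), DESeq2 called 2351 (1062 higher), limma voom 4507 (2172 higher, 2335 lower), the fit of the 2 compared groups alone 783 (294 and 489), and that fit without the library labelled WT1 2225 (1040 higher). Leaving out 1 library at a time gave 302 to 2939 genes, 79 to 1350 higher and 223 to 1589 lower. The 20 sham calls became 147 with DESeq2, 714 with voom, 44 with no low-count filter and 1158 with the 2 groups alone (3 to 79 with 1 library left out), and the 0 interaction calls became 6, 8 and 3 with the first 3 of these (0 to 3). The causes were not tested.

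By list, in the order DESeq2, voom, 2 groups alone, matrix genes lower numbered 62, 77 and 25 against 38, pan-macrophage genes 8, 15 and 1 against 5, mitosis genes higher 35, 40 and 11 against 23, complexes I to V 56, 67 and 14 against 30, and mitochondrial ribosomal proteins 29, 38 and 10 against 18. Voom and the 2 groups alone gave 12 and 3 clock genes lower against 6, and 19 and 4 lysosomal genes against 10; voom gave 71 genes within 10 Mb of Ccl24 against 21. In the 2 groups alone without the library labelled WT1, pan-macrophage genes numbered 11, complexes I to V 66, mitochondrial ribosomal proteins 32 and genes within 10 Mb of Ccl24 36. With 1 library left out, the ranges were 10 to 23 for resting fibroblast, 17 to 68 for matrix, 0 to 14 for pan-macrophage, 0 to 35 for mitosis, 0 to 67 for complexes I to V, 3 to 37 for mitochondrial ribosomal, 6 to 14 for immediate early, 2 to 9 for clock and 1 to 16 for lysosomal genes, and 9 to 40 near Ccl24; the Ccl24 log2 fold change ran from -3.70 to -3.28.

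Replicate numbers are shared between the groups but nothing in the labels ties same-numbered animals, and the 3 same-numbered TAC pairs deviated with correlations of -0.215 to -0.103, within the range of the other 21 pairs (-0.271 to 0.318). Numbers 3, 6 and 7 occur in wild type TAC only and 5 in knockout TAC only. With the replicate number as a block, WT3, WT6, WT7 and KT5 therefore add nothing to the comparison. Of the TAC libraries it then rests on KT1, KT2 and KT4 against WT2, WT4 and the library labelled WT1. In that fit 45 genes passed after TAC (18 higher, 27 lower) and 13 after sham. Of the lists, resting fibroblast gave 2, matrix 2, immediate early 4, genes near Ccl24 2, and pan-macrophage, mitosis, complexes I to V, mitochondrial ribosomal, clock and lysosomal genes 0; Ccl24 had -3.12 and did not pass.

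Over the genes considered for naming and 23 settings, 3656 comparisons kept direction and side of the threshold, 539 lost the call, 76 gained it and 13 changed sign. The sign changes were of genes near 0 that did not pass: Myh6 (-0.036) and C3 (-0.024) with voom, Myh6 (-0.099), Myh7 (0.028), Acta1 (0.079) and Myh11 (-0.083) with the replicate block, and, with 1 library left out, Nppb (-0.010 to 0.31), Myh6 (-0.041 to 0.11), Myh7 (-0.13 to 0.064) and C3 (-0.0058 to 0.26). Libraries of 17072262 to 33123052 reads left genes such as those of eosinophils below what could be tested.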
